A study of Mus musculus with 6 samples.

Results

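The genes described here are the 50 of 17666 listed mouse genes whose symbol begins with Psm, a letter from a to g and a number, the naming pattern of the proteasome's subunits and regulators. They were measured by RNA sequencing of auditory nerves microdissected from young adult mice aged 1.5 to 2.5 months. There were 3 samples from FactorB KO mice, which carry a knockout of Cfb (complement factor B), and 3 from wildtype mice, all labelled C57. Each sample pooled the 2 cochleas of 1 mouse. The labels give neither the targeted allele nor the sex of the animals. The table gives 1 normalized count per gene and sample, a read count that the authors normalized and rounded. Of the 50 genes, 49 code for proteasome subunits, assembly factors or activity regulators. The last, Psmc3ip, matches by its letters and codes for a cofactor of meiotic recombination, so it is counted and shown apart.

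The proteasome is the protease that degrades ubiquitin-tagged proteins. Its 20S core is a barrel of outer alpha rings and inner beta rings, with the protease sites in Psmb5, Psmb6 and Psmb7, and the 19S cap recognises, unfolds and feeds in the substrate. Interferon induces Psmb8, Psmb9 and Psmb10, which replace the constitutive catalytic subunits to form the immunoproteasome, and Psme1 and Psme2, which form the PA28 activator. Neurons and myelinating glia rely on the constitutive enzyme, while immune cells carry much of the inducible one. When the enzyme is inhibited, the transcription factor NRF1, product of Nfe2l1, raises the genes of nearly all constitutive subunits together.

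Cfb, the targeted gene, went against the labels, with 336, 351 and 376 normalized counts in the knockout-labelled libraries, against 55, 39 and 116 in the wildtype-labelled ones, so groups are named as labelled throughout. Its log2 difference was 2.47 (SE 0.38, adjusted p = 0.107 by limma), and the authors' deposited table gave it as 5.08-fold higher with a rate of 1.8e-06. The column totals were between 38675077 and 41496282. They follow from the authors' scaling, and the read depth is unknown. Of the defining markers of the tissue, all 6 of peripheral myelin and all 9 of spiral ganglion neurons were listed above 0 in every library. The 10 markers of red cells and marrow summed to 1948 to 2911 normalized counts in the knockout-labelled libraries, against 8333 to 25187 in the wildtype-labelled libraries, with Elane at 0 in at least 1 library. The 8 markers of the organ of Corti, none at 0, summed to 11688 to 27441, against 4120 to 12664. The myelin markers summed to 315309 to 382956, against 328422 to 558420, which overlap, and their median log2 difference was -0.56, or -0.42 after the correction for transcript length described below. Of these 6, Pmp22, Mal and Ncmap were lower without overlap, against 14.9% of all genes tested. None passed by limma, and all 3 had a rate under 0.05 in the authors' deposited table. The part of these lists in the differences below was not tested. The labels call the samples biological replicates. By limma, a linear model fitted to log2(normalized count + 1) over all genes with Benjamini-Hochberg adjustment, 28 of 17666 genes passed an adjusted p of 0.05, which was 0.158%.

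The promoters below are those of Psmb5, Psmb6 and Psmb9, from the pairs of catalytic subunits that the results set against each other, and of Psme1. Psmb5 and Psmb6 are constitutive catalytic subunits, and Psmb9, an inducible one, takes the place of Psmb6. Psme1 stands for the PA28 activator. Psmb8, which takes the place of Psmb5, is not shown, and its promoter held neither of the elements searched below. Each sequence covers 250 bases before to 50 after the annotated start, from RefSeq on GRCm38.p6, and 42 of the 50 genes had at least 1 such promoter. Capitals mark an antioxidant response element, TGACNNNGC, which CNC factors such as NRF1 bind, in Psmb5 and Psmb6. In Psme1 they mark the core of an interferon-stimulated response element, a GAAA followed after any 2 bases by another GAAA. Both strands were searched.
Psmb5, chr14:54617946-54618245, minus strand: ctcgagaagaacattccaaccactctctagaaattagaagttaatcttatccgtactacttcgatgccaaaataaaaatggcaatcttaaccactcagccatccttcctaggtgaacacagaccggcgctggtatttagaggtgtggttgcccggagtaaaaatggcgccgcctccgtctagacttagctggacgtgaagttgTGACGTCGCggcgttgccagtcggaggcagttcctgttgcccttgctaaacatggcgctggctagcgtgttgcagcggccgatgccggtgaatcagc
Psmb6, chr11:70525107-70525406, plus strand: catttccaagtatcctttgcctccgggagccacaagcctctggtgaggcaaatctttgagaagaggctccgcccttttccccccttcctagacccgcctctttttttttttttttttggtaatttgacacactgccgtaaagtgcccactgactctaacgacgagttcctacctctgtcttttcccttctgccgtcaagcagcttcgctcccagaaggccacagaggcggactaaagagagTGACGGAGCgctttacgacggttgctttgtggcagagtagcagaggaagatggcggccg
Psmb9, chr17:34187281-34187580, minus strand: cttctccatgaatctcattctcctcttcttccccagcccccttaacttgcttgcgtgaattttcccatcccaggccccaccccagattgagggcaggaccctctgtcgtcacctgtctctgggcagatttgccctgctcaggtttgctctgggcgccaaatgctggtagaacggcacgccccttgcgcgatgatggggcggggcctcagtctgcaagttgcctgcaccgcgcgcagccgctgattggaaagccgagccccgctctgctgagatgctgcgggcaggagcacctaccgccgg
Psme1, chr14:55578244-55578543, plus strand: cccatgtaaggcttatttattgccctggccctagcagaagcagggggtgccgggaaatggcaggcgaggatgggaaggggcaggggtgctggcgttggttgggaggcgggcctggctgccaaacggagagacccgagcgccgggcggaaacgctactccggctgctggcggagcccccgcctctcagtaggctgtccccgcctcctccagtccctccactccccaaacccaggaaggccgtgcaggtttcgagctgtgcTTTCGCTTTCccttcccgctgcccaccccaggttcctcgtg
The antioxidant element began at position -47 in Psmb5 and at -9 in Psmb6, counted from the start site. The interferon element of Psme1 began 9 bases after its start site. Among the promoters of the 50 genes, 6 of 45 held the antioxidant element, or 13.33%. The share was 12.39% of all 32851 promoters in the RefSeq table and 14.06% of the 17023 promoters of genes listed here. The interferon element was in 5 of 45, or 11.11%, against 3.44% of all promoters and 3.13% of those of listed genes. The 5 were Psmb3, Psmd4, Psmd9, Psme1 and Psmg4. By role, 1 of 6 promoters of the immunoproteasome genes held the interferon element, that of Psme1. The antioxidant element was in 2 of 4 promoters of the constitutive beta ring and in 0 of 8 of the alpha ring. The promoters shown are thus not typical of their groups. Such matches are a description of the letters and not binding sites.

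Across the 50 genes, values were lower in the knockout-labelled libraries, by a little at a time and in most members. The log2 difference was below 0 for 44 of 50 members, against 49.3% of all genes tested. The median difference (knockout minus wildtype as labelled, here and below) was -0.26 on the log2(normalized count + 1) scale, against 0.01 over all genes tested. No member passed an adjusted p of 0.05 by limma, and the smallest was 0.158. At an unadjusted p under 0.05, 20 members were lower and 0 higher, against 9.2% and 10.8% of all genes tested. The number of members at that p was 11 without knockout replicate 1, 9 without replicate 2, 5 without replicate 3 and 11 without wildtype replicate 2. In 30 of 50 members every knockout-labelled library lay below every wildtype-labelled library, against 14.9% of all genes tested, and no member showed the opposite, against 13.6%. The authors' deposited table gave 6 members a false discovery rate under 0.05, and all 6 were lower in the knockout-labelled libraries, against 3.25% of the 15605 genes with a rate. These 6 were Psma1, Psma4, Psmb1, Psmb2, Psmb7 and Psmc1. In bulk tissue such as this, fewer cells of a type and less RNA per cell cannot be told apart.

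**Figure D1:**
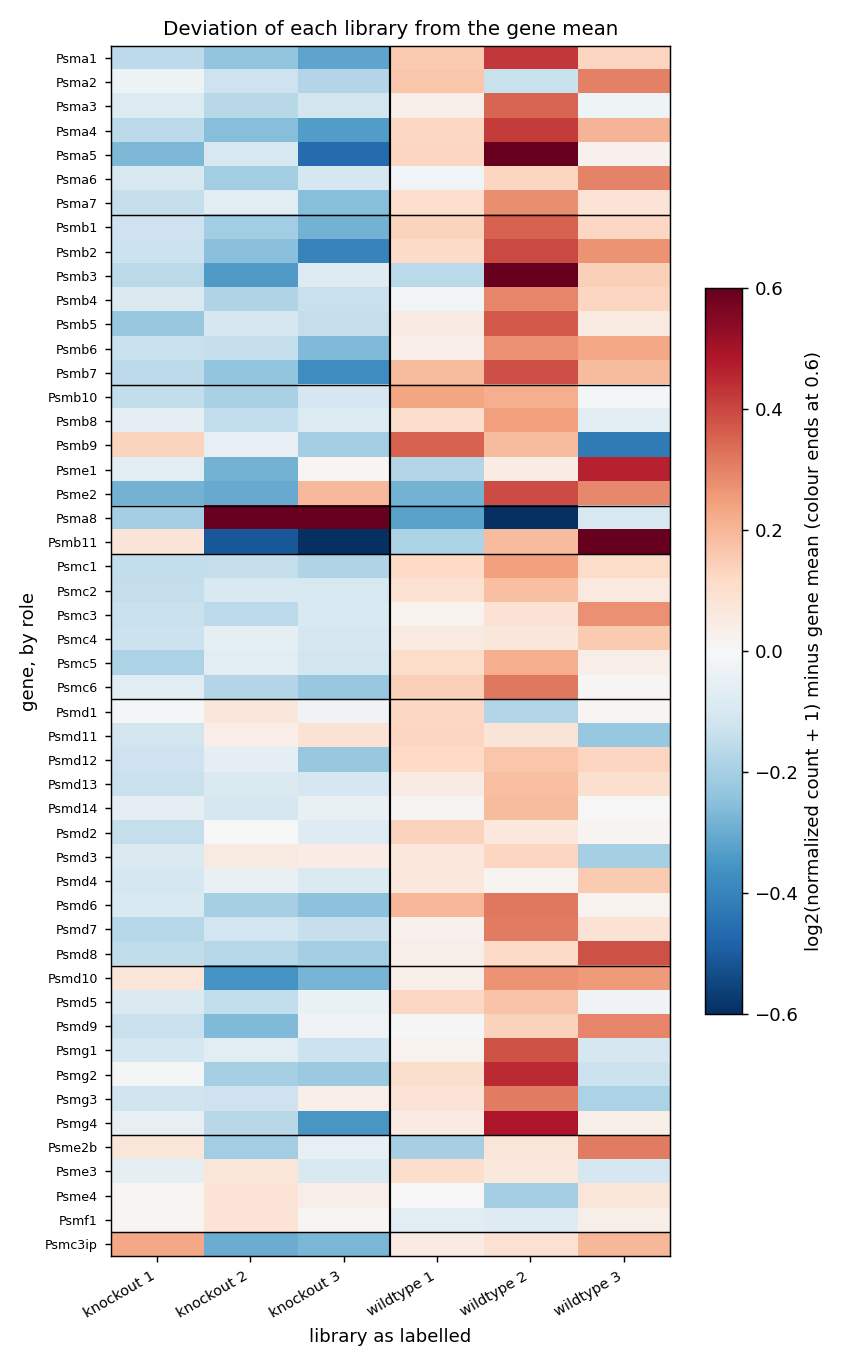
Deviation of each library from the mean of the gene, in log2(normalized count + 1), for the 50 genes in rows ordered by role and the 6 libraries in columns, with the knockout-labelled libraries on the left. Most rows of the 20S and 19S subunits are below their mean in the 3 knockout-labelled libraries and above it in wildtype replicate 2, which had the highest value of 30 of the 50 genes.

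The size of the difference followed transcript length, which touches every value that follows. The members are short, with a median transcript of 1.42 kb against 2.72 kb over all genes. The median log2 difference of the members was -0.31 for transcripts under 1 kb (10 genes), -0.28 from 1 to 1.5 kb (16), -0.25 from 1.5 to 2 kb (12), -0.14 from 2 to 3 kb (7), -0.08 from 3 to 5 kb (4) and 0.09 from 5 kb (1). Other genes with a mean of at least 100 normalized counts had medians of -0.39, -0.25, -0.15, -0.05, 0.08 and 0.32 in the same classes. No minimum mean was set for the members, of which 46 of 50 reached 100. Psmb11, with a mean under 20 and a difference of -0.76, is 1 of the 4 members from 3 to 5 kb. Members under 1 kb thus lay no lower than other short genes, and members from 1.5 to 3 kb lay about 0.1 below genes of their class. Members lower without overlap between labels were 6 of 10 under 1 kb, against 53.1% of the other genes, and 10 of 16 from 1 to 1.5 kb, against 38.7%. They were 10 of 12 from 1.5 to 2 kb, against 27.9%, and 3 of 7 from 2 to 3 kb, against 17.2%. In the longest classes they were 1 of 4, against 9.98%, and 0 of 1, against 2.93%. After a smooth trend on transcript length was subtracted from each library, the median over the members was -0.09, and 38 of 50 were below 0 against 50.9% of all genes. Then 15 of the 50 were lower without overlap, against 13.7% of genes, and 8 had an unadjusted p under 0.05 and lay lower, against 7.73%. No member passed an adjusted p of 0.05 by limma after this correction either, with a smallest adjusted p of 0.250, against 0.126% of genes that passed. The labels give a TruSeq kit and say that degraded RNA was left out, but no integrity value of a library, and the part of RNA quality in this relation was not tested.

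**Figure D2:**
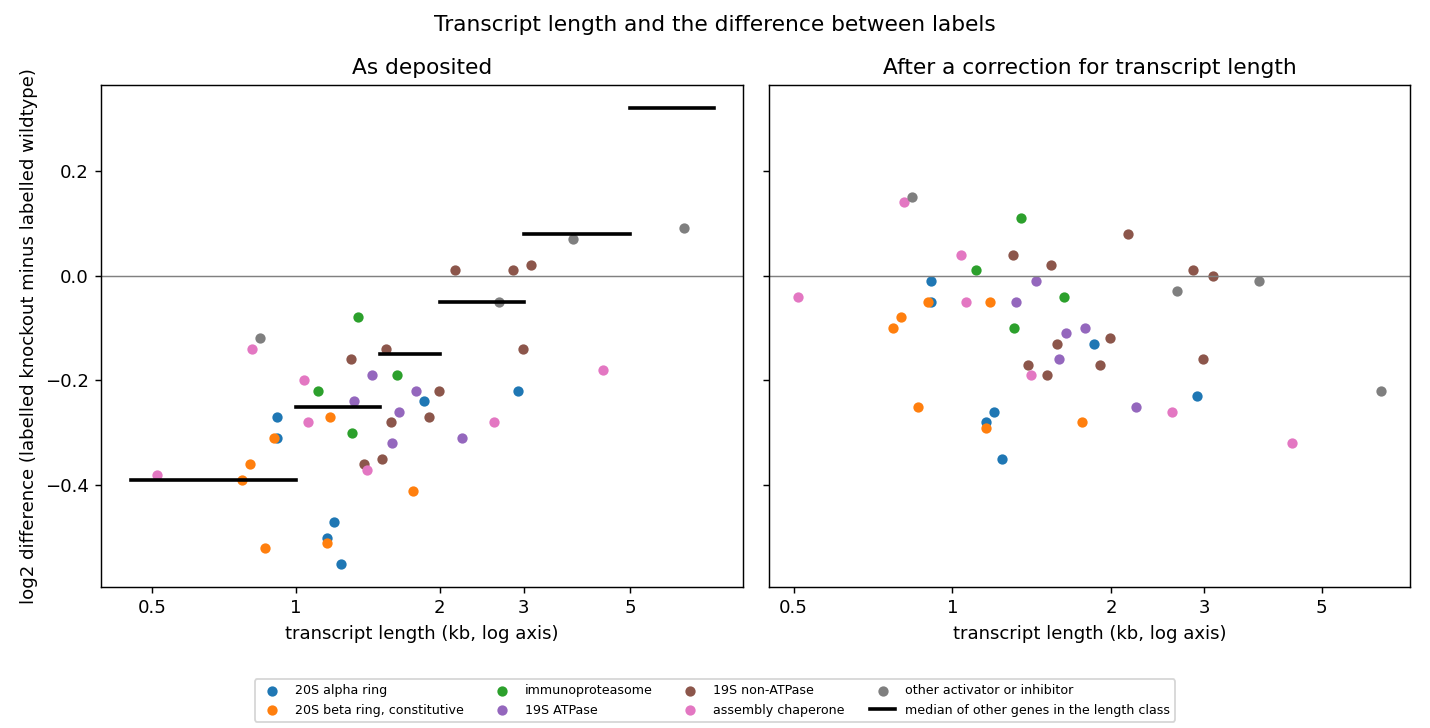
Log2 difference between labels, knockout minus wildtype, against transcript length for the members with a mean of at least 100 normalized counts, as deposited on the left and after the length correction on the right. Black lines on the left give the median of other genes of each length class, from -0.39 under 1 kb to 0.32 from 5 kb. Most points under 1 kb lie above their line, and most from 1.5 to 2 kb lie below theirs. On the right most points lie between -0.3 and 0.1.

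The alpha ring, which gates the 20S core, was lower in all 7 subunits, with log2 differences from -0.55 to -0.22. There was no overlap between labels in 6 of 7, against 17.2% to 53.1% of other genes in their length classes. Psma4 had 1430, 1334 and 1263 normalized counts in the knockout-labelled libraries, against 1736, 2133 and 1834 in the wildtype-labelled ones. Psma1 had 3495, 3308 and 3129, against 4344, 5225 and 4260 in the wildtype-labelled libraries. For both genes the labels did not overlap, and wildtype replicate 2 was the highest library. Psma4 had a log2 difference of -0.50 (SE 0.12, adjusted p = 0.162 by limma), and the authors' deposited table gave it as 1.42-fold lower with a rate of 0.0147. Psma1 had -0.47 (SE 0.12, adjusted p = 0.162 by limma), and in the authors' deposited table it was 1.39-fold lower with a rate of 0.0181. After the length correction the differences were -0.28 and -0.26. Psma4 shares 31.54% of its 50-base stretches with transcripts of other genes, so its reads could be divided, against 0.0% for Psma1.

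Psma5 had the largest difference of the ring, -0.55, and also the lowest level per kb. It had 161, 182 and 141 normalized counts, against 213, 311 and 198 in the wildtype-labelled libraries. Per kb this came to 130.2 ± 16.5, against 194.2 ± 49.5 (SD, n = 3 each). Its standard error of 0.23 was also the largest of the ring. Of the 50-base stretches of its transcript, 55.38% also occur in transcripts of other annotated genes, so reads could be divided between copies. Psma6, the alpha subunit with the highest level per kb, averaged 3321 ± 147 normalized counts in the knockout-labelled libraries and 4022 ± 437 in the wildtype-labelled ones (SD, n = 3 each). Its difference of -0.27 was -0.01 after the length correction. Psma2 was the 1 alpha subunit with overlap, since knockout replicates 1 and 2 had 2452 and 2297 normalized counts, against 2280 in wildtype replicate 2. Psma3 and Psma7 had differences of -0.24 and -0.31, each without overlap.

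The constitutive beta ring was lower in all 7 subunits too, with log2 differences from -0.52 to -0.27, and 6 of 7 did not overlap. Among other genes in their length classes, 27.9% to 53.1% were lower without overlap. Psmb7, which carries the trypsin-like site, had 3903, 3689 and 3357 normalized counts in the knockout-labelled libraries, against 4958, 5689 and 4958 in the wildtype-labelled ones. Psmb2, a structural beta subunit, had 2137, 1969 and 1772, against 2533, 3080 and 2824 in the wildtype-labelled libraries. Psmb1, another structural subunit, had 3740, 3528 and 3344, against 4470, 5213 and 4446 in the wildtype-labelled libraries. In these 3 genes the lowest library was knockout replicate 3 and the highest was wildtype replicate 2. The log2 differences were -0.51 (SE 0.11, adjusted p = 0.158), -0.52 (SE 0.12, adjusted p = 0.161) and -0.41 (SE 0.11, adjusted p = 0.164) by limma. The authors' deposited table gave Psmb7 as 1.43-fold, Psmb2 as 1.44-fold and Psmb1 as 1.33-fold lower, with rates of 0.00491, 0.0131 and 0.0279. After the length correction they were -0.29, -0.25 and -0.28, so these 3 and the alpha subunits Psma1 and Psma4 were the 20S genes with an unadjusted p under 0.05 that remained.

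Psmb6, which carries the caspase-like site, had 3228, 3212 and 2950 normalized counts in the knockout-labelled libraries, against 3642, 4286 and 4168 in the wildtype-labelled ones. Psmb5, which carries the chymotrypsin-like site, had 1526, 1663 and 1616, against 1844, 2302 and 1852 in the wildtype-labelled libraries. Neither gene overlapped between labels. Their log2 differences of -0.36 (SE 0.11) and -0.31 (SE 0.12) had adjusted p-values of 0.174 and 0.228 by limma, and were -0.08 and -0.05 after the length correction. The authors' deposited table gave Psmb6 a rate of 0.0502. Psmb6 had 3922 ± 196 normalized counts per kb in the knockout-labelled libraries and 5053 ± 430 in the wildtype-labelled ones (SD, n = 3 each). Psmb4, a structural subunit with 4622 ± 150 normalized counts in the knockout-labelled libraries and 5586 ± 600 in the wildtype-labelled ones (SD, n = 3 each), had a difference of -0.27. Psmb3, the remaining subunit, had 336, 297 and 356 normalized counts, against 336, 571 and 415 in the wildtype-labelled libraries, which overlap. For Psmb5 and Psmb3, 57.06% and 55.79% of the 50-base stretches occur in transcripts of other genes. For Psmb7 the share was 28.08%.

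**Figure D3:**
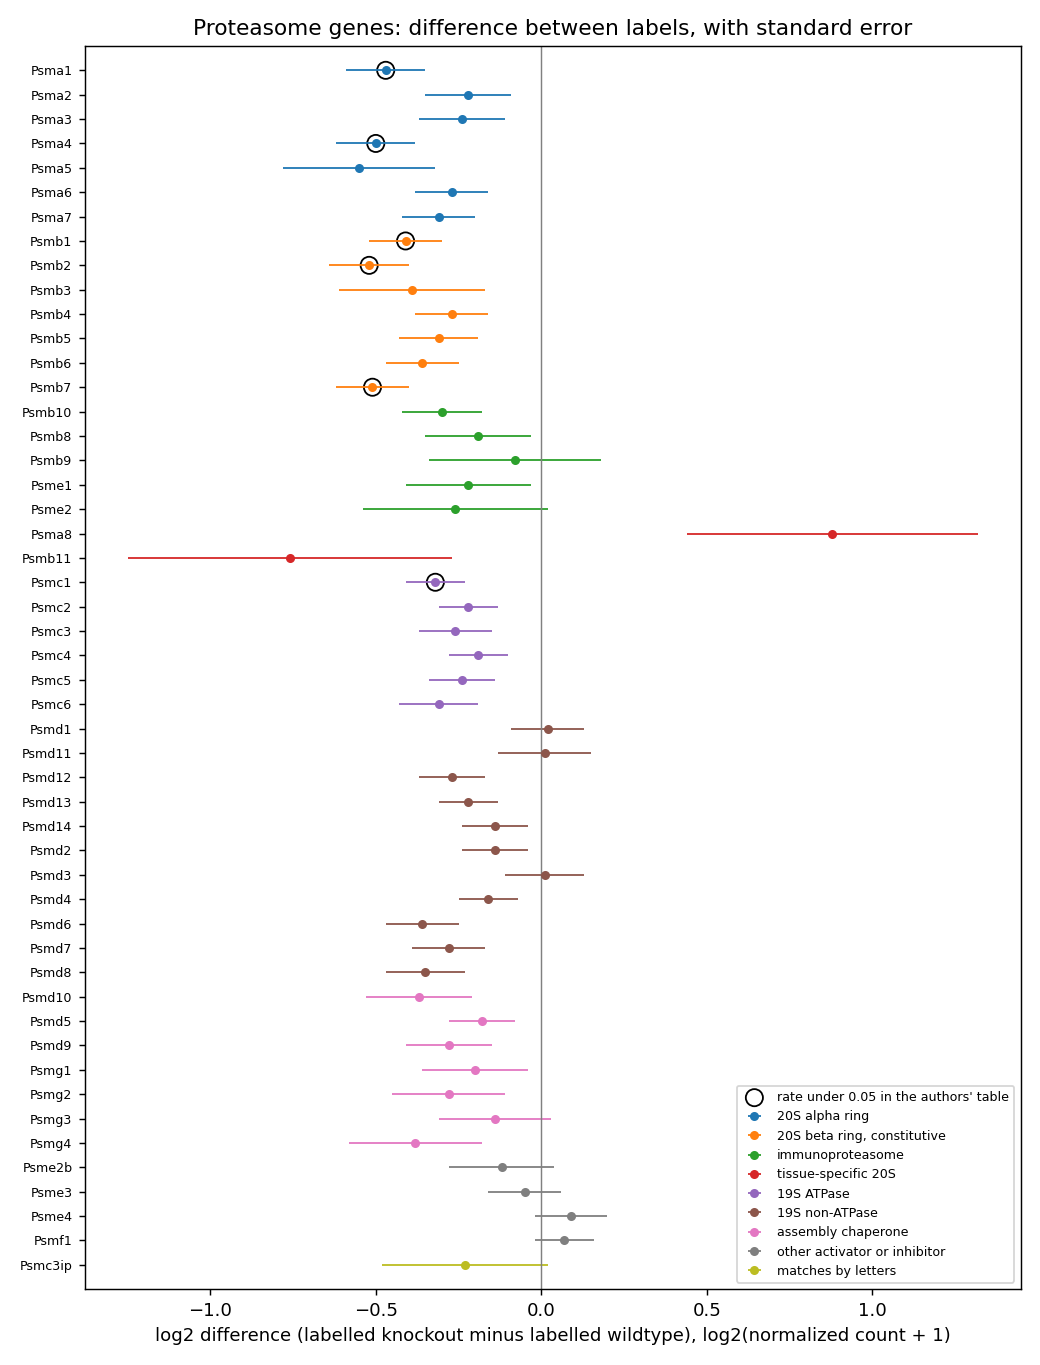
Log2 difference, knockout minus wildtype as labelled, with its standard error for each of the 50 genes, grouped and coloured by role. Circled genes have a rate under 0.05 in the authors' deposited table; the 14 constitutive 20S subunits all lie below 0, while Psmd1, Psmd3, Psmd11, Psme4 and Psmf1 lie just above it and Psma8 lies at 0.88.

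The ATPase ring of the 19S cap, which unfolds substrates, was lower in all 6 subunits. All 6 did not overlap between labels, against 17.2% to 38.7% of other genes in their length classes. The differences ran from -0.32 to -0.19. Psmc1 had 3715, 3726 and 3632 normalized counts in the knockout-labelled libraries, against 4479, 4879 and 4449 in the wildtype-labelled ones. The 3 knockout-labelled libraries lay close together, and the labels were well apart. Its log2 difference was -0.32 (SE 0.09, adjusted p = 0.174 by limma), and the authors' deposited table gave it as 1.25-fold lower with a rate of 0.0288. After the length correction it was -0.16. Psmc1 shares 17.57% of its 50-base stretches with transcripts of other genes. Psmc3 had 5647, 5530 and 5798 normalized counts, against 6281, 6576 and 7491 in the wildtype-labelled libraries, a difference of -0.26. Psmc6 (-0.31), Psmc5 (-0.24), Psmc2 (-0.22) and Psmc4 (-0.19) made up the rest, and of these Psmc6 kept an unadjusted p under 0.05 after the length correction.

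The 11 non-ATPase subunits of the cap were split. Psmd6, Psmd8, Psmd7, Psmd12, Psmd13, Psmd4, Psmd2 and Psmd14 were lower without overlap, with differences from -0.36 for Psmd6 to -0.14 for Psmd14. Among other genes in the length classes of the 11 subunits, 9.98% to 38.7% were lower without overlap. Psmd6 had 2898, 2689 and 2600 normalized counts in the knockout-labelled libraries, against 3540, 3839 and 3130 in the wildtype-labelled ones. Psmd2, a large scaffold subunit, had 7284, 8044 and 7620, against 8833, 8394 and 8133 in the wildtype-labelled libraries, a difference of -0.14. Psmd1, the other large scaffold, had 6954, 7310 and 6871, against 7615, 6189 and 7036 in the wildtype-labelled libraries, which overlap. Its difference of 0.02 stood beside 0.01 for Psmd3 and 0.01 for Psmd11, scaffold subunits of the lid. These 3 genes have transcripts of 3.11, 2.15 and 2.85 kb. Psmd4, a ubiquitin receptor, and Psmd14, the deubiquitinase that removes the chain, differed by -0.16 and -0.14.

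Over the 31 constitutive subunits of core and cap, the summed normalized counts were 104923, 105882 and 102779 in the knockout-labelled libraries, against 121248, 130498 and 122992 in the wildtype-labelled libraries. The labels did not overlap, and the sum in the knockout-labelled libraries was 83.7% of that in the others. By ring, the share was 78.6% for the alpha and 76.0% for the beta subunits, 83.7% for the ATPases and 89.6% for the other cap subunits. The 25 of these subunits with transcripts under 2 kb had a median difference of -0.31, with 24 of 25 lower without overlap. Among other genes under 2 kb, the share was 27.9% to 53.1% by length class. The 6 subunits with longer transcripts had a median of -0.07, with 2 of 6 lower without overlap, against 2.93% to 17.2% of such other genes in the longer classes. Over the 31 genes Pearson's r between log2 transcript length and the difference was 0.65, a description across genes that share the same 6 libraries. After the length correction the median of the 31 genes was -0.12, and 26 of 31 were below 0, against 50.9% of all genes. Then 13 of 31 were lower without overlap, against 13.7% of genes.

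The immunoproteasome subunits were lower by less clear amounts, and of these 5 genes Psmb10 alone did not overlap. Psmb10 had 688, 666 and 712 normalized counts in the knockout-labelled libraries, against 900, 887 and 758 in the wildtype-labelled ones. Psmb8 had 261, 244 and 256, against 291, 321 and 259 in the wildtype-labelled libraries, which overlap by a few counts. Psmb9 had 118, 104 and 93, against 138, 123 and 80, so wildtype replicate 3 was the lowest library. The log2 differences were -0.30 (SE 0.12), -0.19 (SE 0.16) and -0.08 (SE 0.26), with adjusted p-values of 0.242, 0.528 and 0.890 by limma. The Psmb9 difference was 0.074 without wildtype replicate 1, 0.0002 without knockout replicate 3 and 0.11 after the length correction. Psmb8 and Psmb9 lie on chromosome 17 at 34.2 and 34.18 Mb, close to Cfb at 34.86 Mb (GRCm38).

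Psme1, a PA28 subunit, had 858, 735 and 904 normalized counts, against 793, 925 and 1233 in the wildtype-labelled libraries, which overlap. Psme2, its partner, had 73, 72 and 102, against 73, 117 and 109. The adjusted p-values were 0.536 and 0.627 by limma. Psme2b, a near-identical copy of Psme2, was listed at 1011, 830 and 929, against 835, 1010 and 1190, so more was counted for the copy, also per kb, at 1103 ± 108 against 93.7 ± 19.4 for Psme2 in the knockout-labelled libraries (SD, n = 3 each). Of the 50-base stretches of Psme2, 55.6% occur in other transcripts, above all in Psme2b, and the values of both are uncertain. Their sum was 1084, 902 and 1031 in the knockout-labelled libraries, against 908, 1127 and 1299 in the wildtype-labelled ones, and these overlap too. The median difference of Psmb8, Psmb9, Psmb10, Psme1 and Psme2 was -0.22, and 0.01 after the length correction, against 0.01 and -0.01 over all genes.

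The make-up of the catalytic sites was compared as the ratio of each inducible subunit to the constitutive one it replaces, in normalized counts per kb. Psmb8 was at 9.44%, 8.1% and 8.75% of Psmb5 in the knockout-labelled libraries, against 8.71%, 7.7% and 7.72% in the wildtype-labelled ones. Psmb9 was at 2.16%, 1.91% and 1.86% of Psmb6, against 2.24%, 1.69% and 1.13% in the wildtype-labelled libraries. Psmb10 was at 15.6%, 15.97% and 18.77% of Psmb7, against 16.06%, 13.8% and 13.53% in the wildtype-labelled libraries. All 3 ratios overlapped between labels, and their means differed by 0.12, 0.28 and 0.21 on the log2 scale. The inducible transcripts are longer, at 1.63, 1.35 and 1.31 kb, against 0.9, 0.8 and 1.16 kb. Division by kb is the same in every library and does not remove the relation to length. After the length correction Psmb8, Psmb9 and Psmb10 differed by -0.04, 0.11 and -0.10. Psmb5, Psmb6 and Psmb7 then differed by -0.05, -0.08 and -0.29. Under both labels each inducible subunit was listed well below its constitutive counterpart. Reads of Psmb5 could be divided with copies, which bears on the first ratio.

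**Figure D4:**
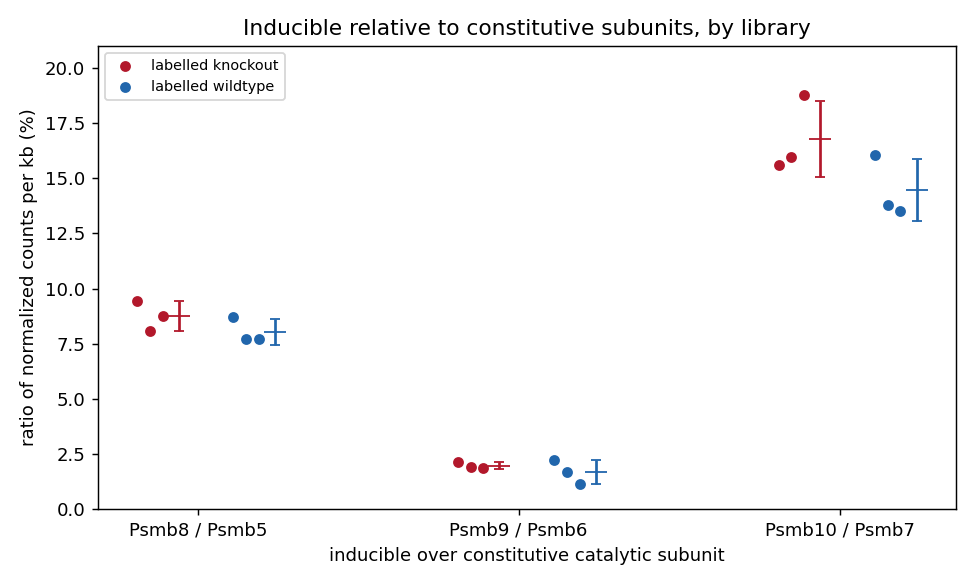
Ratio of normalized counts per kb, in percent, of each inducible catalytic subunit to its constitutive counterpart, by library, with the knockout-labelled libraries left of the wildtype-labelled ones and the mean with SD beside the points (n = 3 each). Psmb8 over Psmb5 lies between 7.7 and 9.44%, Psmb9 over Psmb6 between 1.13 and 2.24%, and Psmb10 over Psmb7 between 13.53 and 18.77%, and the labels overlap in each.

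The genes around the immunoproteasome are given next. Among these and the lists that follow, Tap1, Tap2, B2m, Irf1, Stat2, Pomp, Sem1, Adrm1, Ddi2, Mafg and Nfe2l2 were picked after their values were seen. Of 12 genes that supply peptides to class I molecules, none passed by limma, and the median was -0.13. At an unadjusted limma p under 0.05, 2 were higher and 1 lower, against 10.8% and 9.2% of all genes tested. Tap1, a chain of the peptide transporter and the neighbour that shares its start region with Psmb9, had 485, 484 and 445 normalized counts in the knockout-labelled libraries, against 311, 253 and 414 in the wildtype-labelled ones. Tap2 had 1654, 1581 and 1874, against 1317, 1264 and 1517 in the wildtype-labelled libraries. Both lay higher without overlap, with log2 differences of 0.56 and 0.32 and adjusted p-values of 0.205 and 0.223 by limma, while Psmb9 beside them overlapped. Of the 50-base stretches of Psmb9, 12.51% occur in Tap1 transcripts, so reads in that overlap could count for either gene. B2m, the invariant chain of class I, had 7797, 7455 and 6937, against 9696, 11189 and 16174, and the authors' deposited table gave it a rate of 0.0208. The chaperones Canx and Calr, which have the highest means of the list, had log2 differences of -0.20 and -0.13. After the length correction these were -0.33 and -0.07.

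Of 12 interferon signalling genes, none passed by limma, and the median was 0.04. At an unadjusted limma p under 0.05, 2 were higher and 0 lower, against 10.8% and 9.2% of all genes tested. Jak1 and Ifnar1, with the highest means, had differences of 0.20 and 0.08, and of 0.02 and -0.01 after the length correction. Irf1, an activator of the inducible subunits, had 865, 724 and 757 normalized counts, against 837, 773 and 598 in the wildtype-labelled libraries. Stat2 had 1563, 1763 and 1975, against 1327, 1139 and 1222, and the authors' deposited table gave it a rate of 0.0168. Markers of macrophages, which carry inducible subunits, had a summed level of 13792 to 15733 normalized counts in the knockout-labelled libraries, against 14068 to 15632 in the wildtype-labelled ones. All 12 were measured and none was at 0. Lymphocyte markers summed to 3838 to 4205, against 3856 to 4542, with 10 of 10 measured and Cd3g at 0 in at least 1 library. The part of these cells in the immunoproteasome values was not tested.

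The assembly chaperones were lower in 7 of 7 genes, with differences from -0.38 to -0.14. Labels did not overlap for 3 of 7, against 9.98% to 53.1% of other genes in their length classes. These 3 were Psmg4, which helps build the alpha ring, and Psmd5 and Psmd9, which help build the ATPase ring. Psmd5 had 1950, 1870 and 2018 normalized counts in the knockout-labelled libraries, against 2262, 2333 and 2045 in the wildtype-labelled ones. Its transcript of 4.4 kb is the longest of this group, and its difference of -0.18 became -0.32 after the length correction, when the unadjusted p was 0.0160 and the adjusted p 0.250 by limma. Psmg4, with the shortest transcript at 0.51 kb, had 191, 176 and 155, against 205, 277 and 203 in the wildtype-labelled libraries. Its difference of -0.38 became -0.04. Psmd10, gankyrin, had 640, 476 and 501, against 620, 734 and 726, and Psmg1, Psmg2 and Psmg3 also overlapped.

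The other activators and the inhibitor stood near 0 between labels. Psme4, the PA200 cap, had 5051, 5294 and 5136 normalized counts in the knockout-labelled libraries, against 4999, 4338 and 5267 in the wildtype-labelled ones. Psmf1, an inhibitor of the core, had 2713, 2848 and 2700, against 2572, 2551 and 2751. Psme3, the nuclear PA28 gamma activator, had 3360, 3667 and 3266, against 3751, 3647 and 3254. All 3 overlapped, with log2 differences of 0.09, 0.07 and -0.05, and their transcripts were 6.49, 3.81 and 2.66 kb long. After the length correction Psme4 was at -0.22 (unadjusted p = 0.0439, adjusted p = 0.320 by limma). Psme2b had a difference of -0.12, and 0.15 after the length correction.

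The tissue-specific core subunits were the members with means under 20 normalized counts. Psma8, the alpha subunit of the spermatoproteasome, had 12, 26 and 23 normalized counts in the knockout-labelled libraries, against 11, 7 and 13 in the wildtype-labelled ones. Psmb11, the catalytic subunit of the thymoproteasome, had 11, 7 and 6, against 9, 12 and 24. Both overlapped, with log2 differences of 0.88 (SE 0.44) and -0.76 (SE 0.49) and adjusted p-values of 0.306 and 0.419 by limma. Psmc3ip had 83, 57 and 58, against 73, 75 and 81, which overlap as well.

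Proteasome parts and partners outside the Psm names were measured for 18 genes, and none passed by limma, with a median of -0.10. At an unadjusted limma p under 0.05, 3 were lower and 1 higher, against 9.2% and 10.8% of all genes tested. Pomp, the maturation chaperone of the core, had 2640, 2527 and 2356 normalized counts in the knockout-labelled libraries, against 3086, 3619 and 3276 in the wildtype-labelled ones. It did not overlap, its difference was -0.41 (adjusted p = 0.162 by limma) and -0.25 after the length correction, and the authors' deposited table gave it as 1.33-fold lower with a rate of 0.0260. Sem1, a small cap subunit, had 1769, 1472 and 1536, against 1747, 2298 and 2212, which overlap. Adrm1, a ubiquitin receptor of the cap, had 478, 560 and 471, against 521, 535 and 547. Zfand5 (-0.12) and AI314180 (0.12), which codes for the proteasome adaptor Ecm29, had the highest means. Their transcripts are 7.38 and 7.04 kb long, and after the length correction they were at -0.48 and -0.23. The unadjusted p-values were then 0.031 and 0.0388, and the adjusted ones 0.287 and 0.312, by limma.

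Of 11 genes listed around NRF1, none passed by limma, with a median of 0.06, or -0.07 after the length correction. The list holds Nfe2l1, Nfe2l2, Keap1, Maff, Mafg and Mafk, so not every gene on it controls NRF1. At an unadjusted limma p under 0.05, 2 were higher and 1 lower, against 10.8% and 9.2% of all genes tested. The 1 lower was Nfe2l2, with a difference of -0.31, and the 2 higher were Ddi2 and Mafg. Nfe2l1 itself had 21235, 23678 and 22548 normalized counts in the knockout-labelled libraries, against 21875, 17820 and 22944 in the wildtype-labelled ones, which overlap. Its difference was 0.11, and that of Sel1l, a part of the degradation channel of the endoplasmic reticulum, was 0.19. After the length correction Nfe2l1 was at 0.01 and Sel1l at -0.07. Ddi2, the protease that activates NRF1, had 2595, 2498 and 2850, against 1385, 493 and 1745 in the wildtype-labelled libraries. It lay higher without overlap, with a difference of 1.32 and an adjusted p of 0.189 by limma. Its transcript is 9.55 kb long, and the difference was 0.82 after the length correction. Mafg, a partner of NRF1 on DNA, had 1423, 1588 and 1733, against 1387, 887 and 934, a difference of 0.59 and 0.41 after the correction. Ddi2 is counted among the partners of the proteasome too.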

How the data were processed

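Auditory nerve RNA from 3 FactorB KO and 3 wildtype mice was sequenced, and the labels' genotype set the groups. Per the submitters' processing notes, Partek, TopHat2 and DESeq2 were used with mm10, but neither their order nor their versions are stated there. The deposited values are whole numbers, handled as a score: read counts that the authors normalized and rounded. They are not raw counts, so limma 3.58.1 in R 4.3.3 was fitted to log2(value + 1) of the deposited table with a mean-variance trend over 17666 genes, after a minimum mean of 1 that removed none, with Benjamini-Hochberg adjustment at 0.05; the code was tested on simulated data. The authors' deposited false discovery rate is missing for 2061 genes. Transcript lengths came from GENCODE vM21 for 17484 genes, and the length correction subtracted a lowess trend on log2 length from each library. Shared 50-base stretches were counted over annotated transcripts. No 2 libraries agreed within sampling noise.

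The members, lists and tests were chosen with earlier results of these data known. Named by rule were Cfb, the immunoproteasome genes, Psmb5, Psmb6 and Psmb7, members past the threshold by limma or in the authors' table, the member with the highest mean and that with the largest difference of each role, members with a mean under 20, and the 2 genes with the highest mean of each other list. Members outside it were chosen after their values were seen. The results of some ubiquitin genes are not reported here. Same-numbered samples had correlations of -0.034, 0.086 and 0.201 over 15267 genes, so the numbers were not taken as pairs. Alternatives covered the pseudocount, filter, scaling, length, replicate block, trend, sample weights and each library left out.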

Additional observations from a re-analysis of the deposited data

How the results depend on the processing

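The count of members past an adjusted p of 0.05 by limma was 0 in all 16 alternatives, with a smallest adjusted p of 0.0501 (without wildtype replicate 3). At an unadjusted p under 0.05 it was 20 as reported, 11 with the replicate block and 8 with the length correction. Over all genes, 28 passed as reported, 7 with the replicate block, 16 without the trend and 111 with sample weights, and between 0 and 566 when 1 library was left out. The count was 0 without knockout replicate 1, 2 or 3, where 2218, 1797 and 1892 genes had an unadjusted limma p below 0.05, and it was 87, 2 and 566 without wildtype replicate 1, 2 or 3. Not every sample correlated best with its own number, since knockout replicate 2 did so with wildtype replicate 1 at 0.391, and a lower count under the block is not read as a weaker effect. The median difference of the members was -0.09 with the length correction and between -0.29 and -0.20 with 1 library left out. That of the immunoproteasome genes was 0.01 with the length correction. The sign turned with the length correction for Psmb9 (0.11), Psme1 (0.0082), Psme2 (0.0054), Psme2b (0.15) and Psme4 (-0.22), while leaving out 1 library took Psmb9 between -0.32 and 0.074 and Psme2b between -0.25 and 0.0031. For the other values of the named members, 392 in all, the direction and the side of the threshold were as reported. The 30 members lower without overlap became 26 with equal column totals and 15 with the length correction. The cause of these shifts was not tested, except that fewer samples enter when a library is left out. The files give no depth, so no counting interval can be set, and values under 100 such as those of Psma8 and Psmb11 are the least precise.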

Other observations

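Ubb, a gene for ubiquitin, the tag that marks proteins for the proteasome, was also measured. It had 46378, 47353 and 42924 normalized counts in the knockout-labelled libraries, against 53000, 57383 and 59828 in the wildtype-labelled ones, without overlap. Its log2 difference was -0.32 (SE 0.16, adjusted p = 0.301 by limma), and -0.15 after the length correction.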
